A study of Homo sapiens with 6 samples.

Results

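Globin genes encode the protein chains of hemoglobin, and their transcripts were examined in a human plasma cell tumour line. The members were the 7 genes HBB, HBD, HBG1, HBG2, HBE1, HBA1 and HBA2, found by gene symbol in a table of read counts for 60671 genes. They were proposed with the contrast below already known, so their differences between the groups are described and not tested. Each hemoglobin molecule joins alpha-like with beta-like chains around heme, an iron-holding ring. The alpha chain comes from HBA1 and HBA2, and the beta-like chains come from HBE1 in the embryo, HBG1 and HBG2 in the fetus, and HBB with the much less abundant HBD in adult red cell precursors. These genes are known for very high transcription in erythroid cells, driven by factors such as GATA1 and KLF1, and plasma cells are not known as hemoglobin-producing cells.

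The study sequenced RNA from MM.1S, a multiple myeloma line, in 6 libraries. The WT group (3 libraries) was MM.1S carrying a lentivirus for green fluorescent protein (GFP) and for click beetle red (CBR), a luciferase. The CD38 KO group (3 libraries) was 1 clone of that line made with CRISPR/Cas9, also tagged with GFP and CBR. CD38 is a surface enzyme that consumes NAD, and the stated purpose was to describe the phenotype of the knockout. Sorting by flow cytometry kept CD38+ cells of the WT line and CD38-negative cells of the clone, and removed dead cells that took up 7-AAD. Replicates were prepared from those sorted cells, so the spread below is that between preparations of 1 line each, and an effect of CD38 loss cannot be told apart from a difference between the clone and its parent line.

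Total counts ran from 61515519 to 72335496 per library. CD38 checked the labels: WT libraries had 3148, 2678 and 2545 counts and CD38 KO libraries 51, 80 and 48, a mean of 2.40% of the WT level. Levels are given as CPM, the count scaled to the size of its library. Of 20120 genes that passed a filter on low counts, 44.4% had an adjusted p under 0.05 in edgeR's quasi-likelihood test, 22.8% higher and 21.6% lower in CD38 KO. Those 4592 higher and 4342 lower genes became 3632 higher and 5570 lower when counts were scaled by library size alone, with no correction for composition. Against this background a call on a single gene is common, and every list below is read beside it. Most plasma cell markers were abundant in every library. SDC1, the syndecan used to recognise plasma cells, had 1204 ± 58.8 CPM in WT and 1235 ± 34.3 in CD38 KO (SD, n = 3 each, as for every ± below).

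HBD and HBB were the globin genes with a clear level in MM.1S, and HBD was by far the more different between the groups. The 7 genes together had 59.3, 63.4 and 61.1 CPM in WT libraries, against 241.8, 268.8 and 257.8 CPM in CD38 KO libraries. The lowest CD38 KO library was above the highest WT library, and the sum made up 0.00630% ± 0.000273 of WT counts and 0.0249% ± 0.00125 of CD38 KO counts (SD, n = 3 each). Of the 7 members, 3 passed the filter on low counts (HBB, HBD and HBA2), and 3 had no counted read in any library (HBG1, HBG2 and HBE1). HBB and HBD were the 2 members past the threshold, both higher. They were chosen on this contrast, so nothing is read from that count. In bulk RNA, more cells that transcribe a gene and more RNA per cell cannot be told apart.

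**Figure D1:**
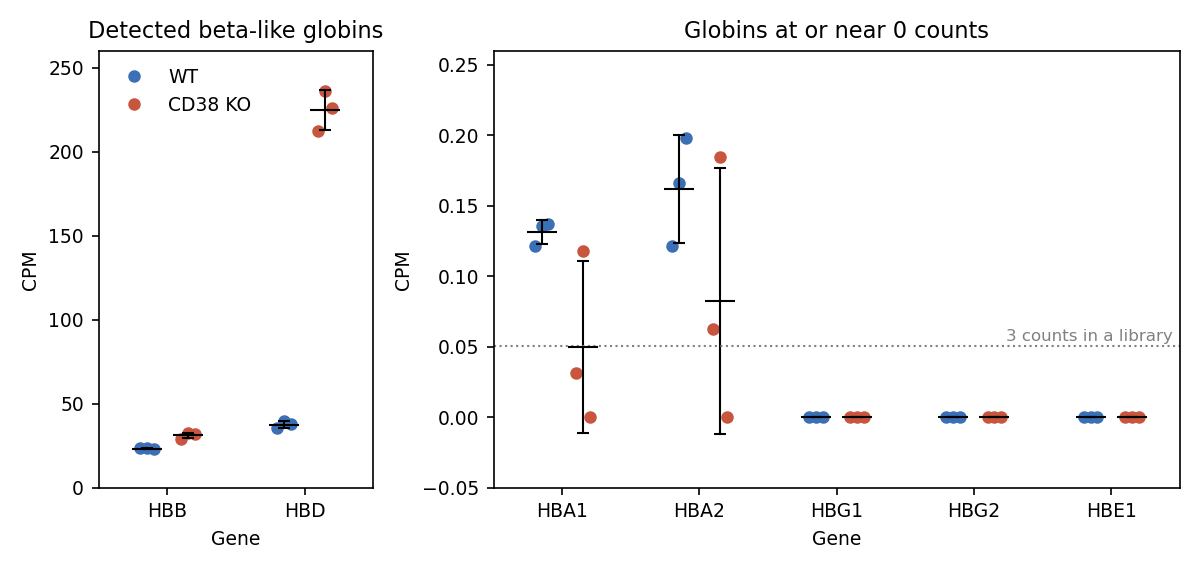
Levels of the 7 globin genes in CPM (vertical axes) in the 3 WT and 3 CD38 KO libraries. Points are libraries, horizontal lines are means and bars are ± 1 SD; the dotted line marks the CPM of 3 counts in the library where they weigh most. HBD means were 37.6 and 224.9 CPM, HBB means were 23.3 and 31.1, and the remaining 5 genes stayed under 0.2 CPM in every library.

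HBD (ENSG00000223609) encodes the delta chain, the beta-like chain of the minor adult hemoglobin. In GENCODE 29 (build GRCh38) it lies at chr11:5232678-5243657 on the minus strand, with 3 exons in the transcript that GENCODE 29 pairs with a RefSeq entry. The 90 bases of its last exon with the most differences from HBB show how reads of these near copies can be kept apart. They cover coding bases 316 to 405 at chr11:5233003-5233092 on the minus strand, read 5′ to 3′ from the GENCODE 29 transcript, and the 10 capitals mark the bases that differ from HBB.
HBD coding stretch: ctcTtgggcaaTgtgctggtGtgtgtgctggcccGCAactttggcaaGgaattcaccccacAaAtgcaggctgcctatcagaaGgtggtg
Over the whole coding sequence of 444 bases with the stop codon, HBB and HBD differed at 32 positions, an identity of 92.8%. Of all 50-base windows of the transcripts, 2.94% of those in HBB and 2.31% of those in HBD occurred in the other gene, and no window of 100 or 150 bases did. A read of 100 bases without errors therefore matches 1 of these transcripts only. HBD resembled the fetal and embryonic genes less, with an identity of 76.1% to HBG1 and 78.6% to HBE1, and shared no 50-base window with either.

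HBD had 2631, 2621 and 2481 counts in WT replicates 1 to 3 and 13581, 14054 and 13999 in the CD38 KO replicates. Scaled to the libraries this was 35.5, 39.6 and 37.8 CPM in WT and 212.4, 236.2 and 226.0 CPM in CD38 KO. Every CD38 KO library was above 212 CPM and every WT library below 40 CPM, and libraries of 1 group lay close together. The mean went from 37.6 ± 2.01 to 224.9 ± 11.9 CPM (SD, n = 3 each), a log2 fold change of 2.58 (SE 0.0523). The ratio of summed counts was 5.98, with a 95% counting interval from 5.84 to 6.13 that covers counting error only. A log2 fold change above that of HBD was found in 218 of the 20120 genes tested, and in 6 of the 10287 genes with a WT mean of at least 5 CPM. The cut on the WT mean leaves out genes that rose from a low WT level. HBD was chosen with this contrast known, so its place among the genes is a description only.

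HBB (ENSG00000244734), the beta chain of the main adult hemoglobin, lies next to HBD at chr11:5225464-5229395 on the same strand, also with 3 exons in its paired transcript. It had 1737, 1557 and 1512 counts in WT and 1872, 1925 and 1968 in CD38 KO. The levels were 23.5, 23.5 and 23.0 CPM in WT and 29.3, 32.3 and 31.8 CPM in CD38 KO. The groups did not overlap, and the gap between them was small beside that of HBD. The mean went from 23.3 ± 0.268 to 31.1 ± 1.63 CPM (SD, n = 3 each), a log2 fold change of 0.42 (SE 0.0676). The ratio of summed counts was 1.33, with a counting interval from 1.28 to 1.38. Among all genes tested, 52.5% had groups that did not overlap, 26.9% with CD38 KO above WT and 25.6% below.

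The balance between the neighbouring genes differed between the groups. HBD made up 60.2%, 62.7% and 62.1% of the HBB and HBD counts in WT libraries, and in CD38 KO libraries 87.9%, 88.0% and 87.7%. The widest 95% Wilson interval of a library ran from 60.6% to 63.6% in WT and from 87.4% to 88.4% in CD38 KO. This share does not depend on how the libraries were scaled, since both genes come from the same library. HBD had more counts than HBB in each of the 6 libraries, with a count ratio of 1.61 ± 0.0877 in WT and 7.22 ± 0.0977 in CD38 KO (SD, n = 3 each).

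**Figure D2:**
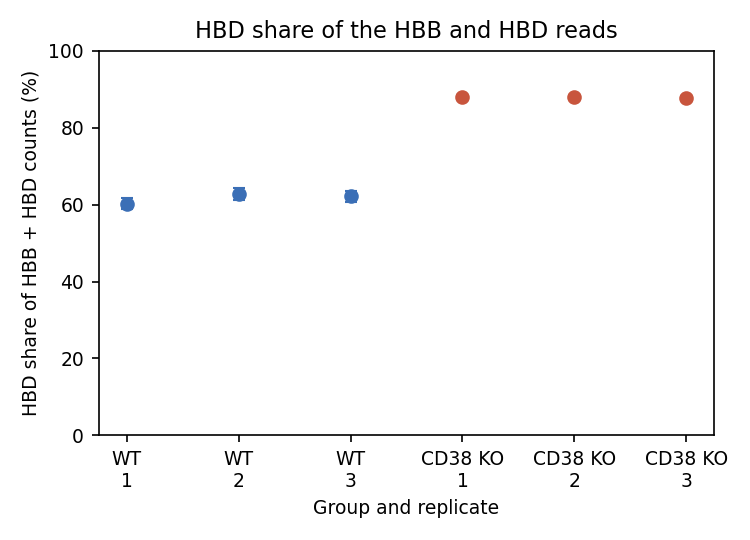
Share of HBD in the summed HBB and HBD counts (vertical axis, percent, from 0) for each of the 6 libraries. Points are libraries and bars are 95% Wilson intervals, which are narrower than the points in CD38 KO; the 3 WT libraries lie from 60.2% to 62.7% and the 3 CD38 KO libraries from 87.7% to 88.0%.

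Per length of the transcripts that GENCODE 29 pairs with RefSeq entries, 628 bases for HBB and 785 for HBD, the WT level was 47.9 ± 2.56 CPM per kb for HBD and 37.1 ± 0.426 for HBB (SD, n = 3). In CD38 KO the level was 286.5 ± 15.2 CPM per kb for HBD and 49.6 ± 2.60 for HBB. The alpha genes followed far below, at 0.281 ± 0.0666 CPM per kb for HBA2 and 0.228 ± 0.0149 for HBA1 in WT, and at 0.143 ± 0.163 and 0.0860 ± 0.106 in CD38 KO. The order was thus HBD, HBB, HBA2, HBA1 and then the 3 genes with no counted read. HBD and HBB were separated by more than their spread in both groups, and HBA2 and HBA1 were not. The HBD level per length was 1.29 ± 0.0702 times that of HBB in WT and 5.78 ± 0.0782 times in CD38 KO, and with the exons of all annotated transcripts as the length it was 1.66 and 7.42 times. The 785-base HBD transcript starts at base 5234648, upstream of the start in the RefSeq gene table at 5234483, and the longest HBD transcript with that second start, 620 bases, gave 1.63 and 7.32 times. Among 13169 tested protein-coding genes ranked by CPM per kb of annotated exons, HBD stood at place 1578 in WT and at place 153 in CD38 KO. HBB stood at places 2618 and 2017.

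**Figure D3:**
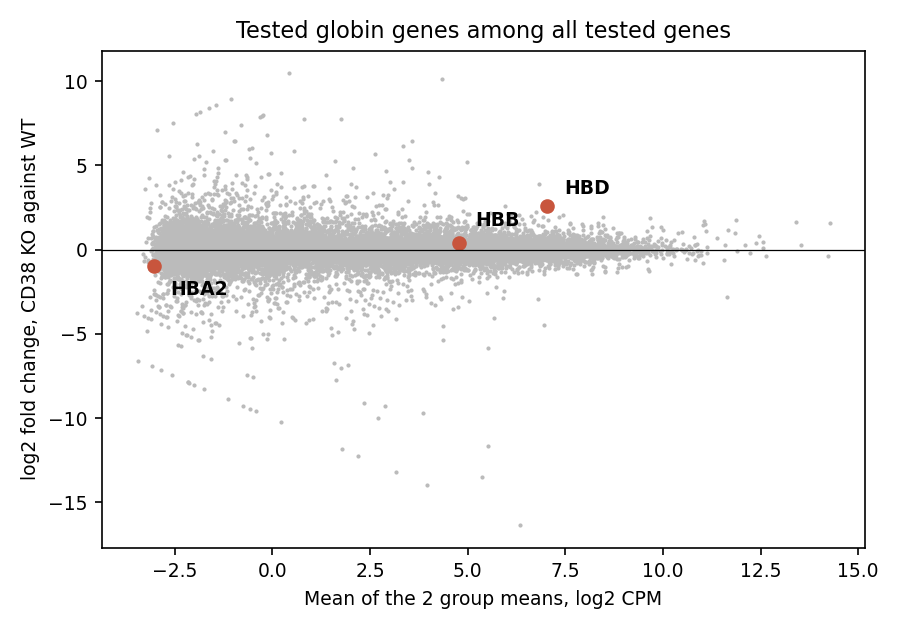
Log2 fold change of CD38 KO against WT (vertical axis) against the mean level in log2 CPM (horizontal axis) for the 20120 genes tested. Grey points are genes and red points the 3 globin genes that passed the filter on low counts; HBD lies at 2.58, among the highest of genes at its level, HBB at 0.42 within the cloud and HBA2 at -0.97 at the low end of expression.

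The fetal and embryonic genes had no counted read at all. HBG1 (chr11:5248079-5249859), HBG2 (chr11:5253190-5505605) and HBE1 (chr11:5268345-5505652), all on the minus strand, each had 0 counts in each of the 6 libraries. A count of 0 allows up to 3 counts, which was 0.0405 to 0.0504 CPM depending on the library (averages of 0.0438 for WT and 0.0486 for CD38 KO). HBG1 and HBG2 differed at 2 of 444 coding bases, and 39.0% of the 100-base windows of HBG1 and 51.5% of those of HBG2 were shared between them. Reads from shared windows can be split or dropped by a counter that keeps unique matches only, but the remaining windows of both genes also gave no count. The annotated spans of HBG2 and HBE1 overlap, and the counting of overlapping genes is not given in the sources used here. A count of 0 for these genes may therefore also depend on how such reads were counted, which was not tested.

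The alpha genes were close to the detection limit. HBA2 (chr16:172876-173710) and HBA1 (chr16:176680-177522) lie side by side on the plus strand, and their coding sequences differed at 0 of 429 bases. Of their 100-base windows, 79.7% in HBA1 and 79.9% in HBA2 were shared, so the 2 genes are best read as a sum. HBA1 had 9, 9 and 9 counts in the WT libraries and 2, 7 and 0 in CD38 KO. HBA2 had 9, 11 and 13 counts in WT and 4, 11 and 0 in CD38 KO. Summed, the libraries held 18, 20 and 22 counts in WT and 6, 18 and 0 in CD38 KO, and the highest CD38 KO library equalled the lowest WT library in counts. In CPM that CD38 KO library, replicate 2, was at 0.302, within the WT range of 0.243 to 0.335. The sum was 0.293 ± 0.0465 CPM in WT and 0.132 ± 0.155 in CD38 KO (SD, n = 3 each), where the SD of CD38 KO exceeded its mean. The ratio of summed counts was 0.444, with a counting interval from 0.265 to 0.724 that leaves out the spread between libraries. Fitted in edgeR as a single feature, the sum had a log2 fold change of -1.15 (SE 0.732). HBA2 alone had a log2 fold change of -0.97 (SE 0.785), which became -0.38 without CD38 KO replicate 3 and -2.28 without CD38 KO replicate 2.

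The remaining genes and pseudogenes of the globin family stayed low. Of 11 on the list, 10 were in the table and 1, NGB, passed the filter on low counts. NGB, the globin of nerve cells, had 38, 33 and 30 counts in WT and 44, 53 and 71 in CD38 KO. Its mean was 0.489 ± 0.0293 CPM in WT and 0.908 ± 0.230 in CD38 KO (SD, n = 3 each), with a log2 fold change of 0.89 and an edgeR adjusted p of 0.0249. The edgeR adjusted p of NGB was 0.138 without CD38 KO replicate 3, and 0.0560, 0.0579 and 0.0765 without WT replicates 1, 2 and 3, and 0.0542 with no filter on low counts. HBBP1, a pseudogene whose annotated span overlaps an upstream exon of HBD, had 10, 8 and 8 counts in WT and 5, 6 and 5 in CD38 KO. Its count ratio was 0.684 (counting interval 0.343 to 1.32), and because the counting of overlapping genes is not given in the sources used here, its reads and those of HBD may not be fully separated. HBZP1 and BGLT3 had no count in any library, and HBZ, the embryonic alpha-like gene, had 2 counts in 1 WT library and none elsewhere.

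HBB and HBD lay in a stretch of the chromosome with few other reads. Between the nearest tested gene on either side (chr11:4608260-5571246, 963.0 kb) the table held 82 genes, of which 49 had no count in any library. Only 3 of the 82 had more than 30 counts over the 6 libraries: HBD, HBB and HBBP1, the last with 42. The nearest tested neighbour on one side, 617205 bases from HBB, was TRIM68, a ubiquitin ligase gene, at 17.1 ± 0.848 CPM in WT and 20.5 ± 1.56 in CD38 KO (log2 fold change 0.27, edgeR adjusted p = 0.0102). The call on TRIM68 was lost without CD38 KO replicate 2 (edgeR adjusted p = 0.0565) without WT replicate 1 (edgeR adjusted p = 0.0592) and with scaling by library size alone (edgeR adjusted p = 0.0727). On the other side, 327590 bases from HBD, was the pseudogene HNRNPA1P53, at 0.179 CPM in WT and 0.183 in CD38 KO.

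**Figure D4:**
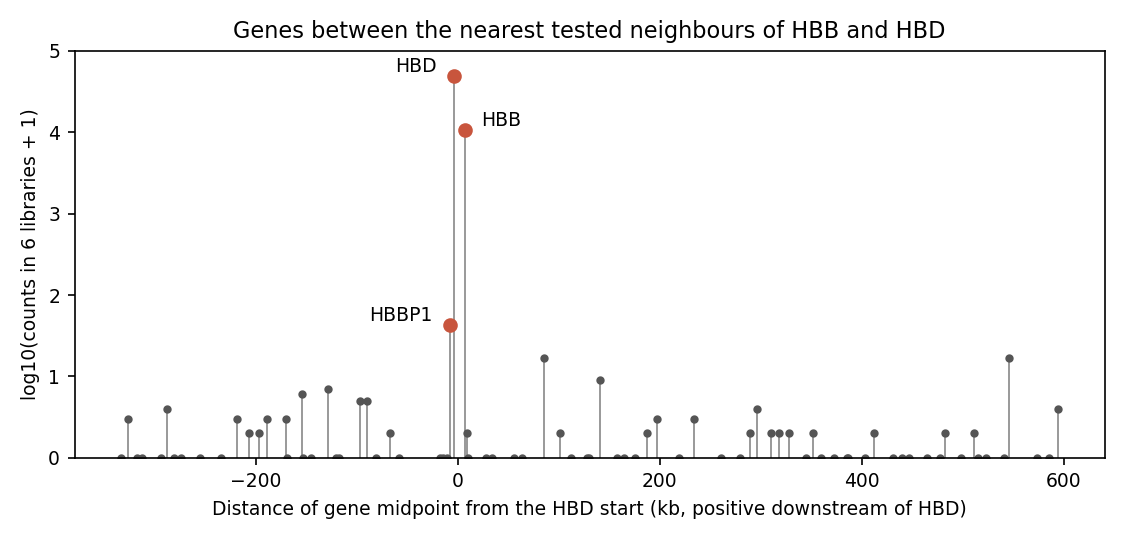
Counts summed over the 6 libraries, as log10(counts + 1), for each gene between the nearest tested neighbours of HBB and HBD, placed by the distance of its midpoint from the HBD start in kb. Each point is a gene and red points are HBD, HBB and HBBP1; 49 of the 82 genes lie at 0 and only these 3 had more than 30 counts.

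Listed genes of the same chromosome arm, TRIM68 among them, moved both ways. Of 24 listed neighbours of the beta-like cluster, most of them olfactory receptor and TRIM genes, 8 were tested, with 2 higher, 4 lower and 2 not past the threshold (75% past it, against 44.4% of all genes). Their median log2 fold change was -0.22, against 0.000212 over all genes tested. TRIM22, an antiviral TRIM gene, fell from 1.70 ± 0.430 to 0.413 ± 0.111 CPM (log2 fold change -2.04, edgeR adjusted p = 8.52e-06). STIM1, the calcium sensor of the endoplasmic reticulum, rose from 231.6 ± 11.4 to 300.7 ± 8.07 CPM (log2 fold change 0.38, edgeR adjusted p = 2.27e-07). The number higher was 1 without CD38 KO replicate 2, without WT replicate 1 or with scaling by library size alone, and the median was -0.0419 with no filter on low counts. Around the alpha-like cluster 16 of 18 listed genes were tested, with 4 higher, 4 lower and a median log2 fold change of 0.08, so 50% were past the threshold against 44.4% of all genes. That median was -0.00501 with scaling by library size alone, -0.0128 with no filter and -0.00189 without CD38 KO replicate 2. The number lower was 2 without CD38 KO replicate 2, CD38 KO replicate 3 or WT replicate 3. NPRL3, whose introns hold the known enhancers of the alpha genes, lay 13827 bases from HBZ, the gene at one end of the alpha-like cluster. NPRL3 fell from 87.5 ± 3.91 to 77.3 ± 4.11 CPM (log2 fold change -0.18, edgeR adjusted p = 0.00712, and 0.0523 without CD38 KO replicate 3). LUC7L, a splicing factor gene, lay 7788 bases from HBQ1, the gene at the other end of that cluster. LUC7L rose from 33.8 ± 2.20 to 48.7 ± 3.55 CPM (log2 fold change 0.53, edgeR adjusted p = 1.03e-06).

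Because HBD differed more than its neighbour, its promoter was searched for letters known from globin promoters. HBD was the 1 member of 7 with an entry in the RefSeq promoter table (GRCh38.p14). The 250 bases before the start in that table, base 5234483, lie at chr11:5234484-5234733 on the minus strand and are given 5′ to 3′, with the matches in capitals. The 785-base transcript used for the levels per length starts farther upstream, at base 5234648, so the part of this window nearest the start lies inside its first exon.
HBD promoter: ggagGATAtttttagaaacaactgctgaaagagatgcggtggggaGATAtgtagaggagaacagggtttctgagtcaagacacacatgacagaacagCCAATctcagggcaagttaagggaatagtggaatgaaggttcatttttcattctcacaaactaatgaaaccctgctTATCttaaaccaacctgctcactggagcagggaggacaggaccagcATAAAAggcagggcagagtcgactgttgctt
Both strands were searched. GATA, the core letters read by GATA factors, matched 3 times, at -246 to -243 and -205 to -202 on the strand of the gene and at -77 to -74 on the opposite strand, counted back from the start. CCAAT matched once, at -153 to -149 on the strand of the gene. Another match, to ATAAAA, lay at -31 to -26 on the same strand. CACCC, the letters read by KLF factors, had no match in this window. The CCAAT, the ATAAAA and the GATA match nearest the start lie in the stretch that the longer transcript counts as exon. Of 34788 promoters in the table over the same length, 45.7% held GATA, 32.0% CCAAT, 14.9% ATAAAA and 54.7% CACCC. These matches describe letters only and were not tested as binding sites.

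GATA1, TAL1, NFE2 and KLF1, activators of red cell globin transcription, were under 0.5 CPM in every library, while repressors of the fetal genes were present. Not all listed regulators were low: LDB1 had means of 37.2 CPM in WT and 33.6 in CD38 KO, and MAFG 85.9 and 83.1. GATA2 had 4, 6 and 8 counts in WT and 18, 17 and 10 in CD38 KO, and its groups did not overlap in CPM. The GATA2 difference was not past the threshold (log2 fold change 1.44, edgeR adjusted p = 0.0538). GATA1, the erythroid master regulator, had 2, 7 and 8 counts in the WT libraries and 7, 7 and 0 in CD38 KO. TAL1, its partner, had 2, 1 and 1 counts in WT and 0, 0 and 1 in CD38 KO, and NFE2, an activator acting at the beta-like cluster, had at most 2 counts in any library. KLF1, the activator of adult beta globin, had 23, 25 and 29 counts in WT and 6, 10 and 22 in CD38 KO. All CD38 KO libraries were below the WT libraries in KLF1 counts, but the groups overlapped in CPM and the difference was not past the threshold (log2 fold change -0.87, edgeR adjusted p = 0.180). Without CD38 KO replicate 3 the KLF1 log2 fold change was -1.51 (edgeR adjusted p = 0.0489). LIN28B and IGF2BP1, RNA-binding proteins of the fetal program, had at most 7 counts in any library.

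BCL11A and MYB, known repressors of the fetal globin genes, were lower in CD38 KO. BCL11A had 572, 654 and 625 counts in WT and 215, 294 and 228 in CD38 KO, all CD38 KO libraries below all WT libraries. Its mean fell from 9.04 ± 1.15 to 3.99 ± 0.834 CPM (log2 fold change -1.18, edgeR adjusted p = 1.14e-06). MYB had 885, 741 and 669 counts in WT and 283, 291 and 361 in CD38 KO, again with no overlap. Its mean fell from 11.1 ± 0.888 to 5.05 ± 0.714 CPM (log2 fold change -1.14, edgeR adjusted p = 9.64e-08). HBG1 and HBG2 stayed at 0 counts in the same CD38 KO libraries. ZBTB7A, another repressor of the fetal genes, was at 56.9 ± 2.99 CPM in WT and 50.7 ± 2.60 in CD38 KO (log2 fold change -0.17, edgeR adjusted p = 0.0219). Its edgeR adjusted p was 0.0854 without CD38 KO replicate 1, 0.108 without CD38 KO replicate 3 and 0.164 without WT replicate 3.

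Of all 28 listed regulators, 22 were tested, with 4 higher, 6 lower and 12 not past the threshold, and a median log2 fold change of -0.13. That is 45.5% past the threshold, close to the 44.4% of all genes. NR2C1, an orphan receptor that represses embryonic and fetal genes, fell by 0.32 on the log2 scale (edgeR adjusted p = 0.00120). BACH1, a heme-sensing repressor, fell by 0.29 (edgeR adjusted p = 0.00463), and RUNX1, a blood cell transcription factor, rose by 0.29 (edgeR adjusted p = 0.00143). The other genes higher were NR2C2, KLF3 and MBD2, by 0.21, 0.16 and 0.13 (edgeR adjusted p = 0.0422, 0.0127 and 0.0126). The call on MBD2 was lost with scaling by library size alone (edgeR adjusted p = 0.371) and with no filter (edgeR adjusted p = 0.0617). It was also lost without CD38 KO replicate 3 or WT replicate 1 (edgeR adjusted p = 0.0520 and 0.0779). The number higher was 2 without WT replicate 1 or without WT replicate 2, and 1 with scaling by library size alone.

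Heme, the ring that globins carry, is made by enzymes that all cells hold. Of 19 listed genes of heme synthesis and transport, 18 were tested, 9 higher, 7 lower and 2 not past the threshold, with a median log2 fold change of 0.10. That is 88.9% past the threshold, against 44.4% of all genes, and the members moved in both directions. With scaling by library size alone 5 were higher and the median was 0.0204. FECH, which inserts the iron in the last step, had 9033, 8403 and 8104 counts in WT and 12087, 11064 and 11390 in CD38 KO, with no overlap. FECH rose from 124.1 ± 2.47 to 186.3 ± 2.61 CPM (log2 fold change 0.59, edgeR adjusted p = 1.32e-10). ALAS1, the first enzyme in most tissues, rose from 71.8 ± 1.75 to 84.5 ± 1.44 CPM (log2 fold change 0.23, edgeR adjusted p = 0.000273). Its erythroid counterpart ALAS2 had 12, 4 and 4 counts in WT and 8, 10 and 5 in CD38 KO. UROS rose by 0.26 on the log2 scale (edgeR adjusted p = 0.000112), whereas other enzymes of the same chain were lower. ALAD fell by 0.38 (edgeR adjusted p = 9.58e-06) and PPOX by 0.29 (edgeR adjusted p = 0.000168). The mitochondrial porphyrin transport protein TMEM14C fell by 0.22 (edgeR adjusted p = 0.000721).

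Of 12 listed genes of heme breakdown and globin handling, 8 were tested, with 0 higher, 4 lower and 4 not past the threshold, and a median log2 fold change of -0.12. That is 50% past the threshold, close to the 44.4% of all genes. No gene of the list was higher at an unadjusted edgeR p under 0.05 (0 of 8). None was higher past the threshold in DESeq2 or limma-voom (0 each), where 4 and 5 were lower. HMOX1, the inducible heme oxygenase, had 2236, 2044 and 1921 counts in WT and 1087, 975 and 1031 in CD38 KO, with no overlap. HMOX1 fell from 30.1 ± 0.806 to 16.7 ± 0.311 CPM (log2 fold change -0.85, edgeR adjusted p = 2.07e-09). BLVRA, which turns biliverdin into bilirubin, fell from 132.3 ± 4.50 to 86.8 ± 2.42 CPM (log2 fold change -0.61, edgeR adjusted p = 3.55e-10). BLVRB fell by 0.34 on the log2 scale (edgeR adjusted p = 3.75e-06) and HMOX2, the constitutive oxygenase, by 0.16 (edgeR adjusted p = 0.00702). AHSP, the chaperone that holds free alpha chains, had no count in 5 libraries and 2 in CD38 KO replicate 3.

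**Figure D5:**
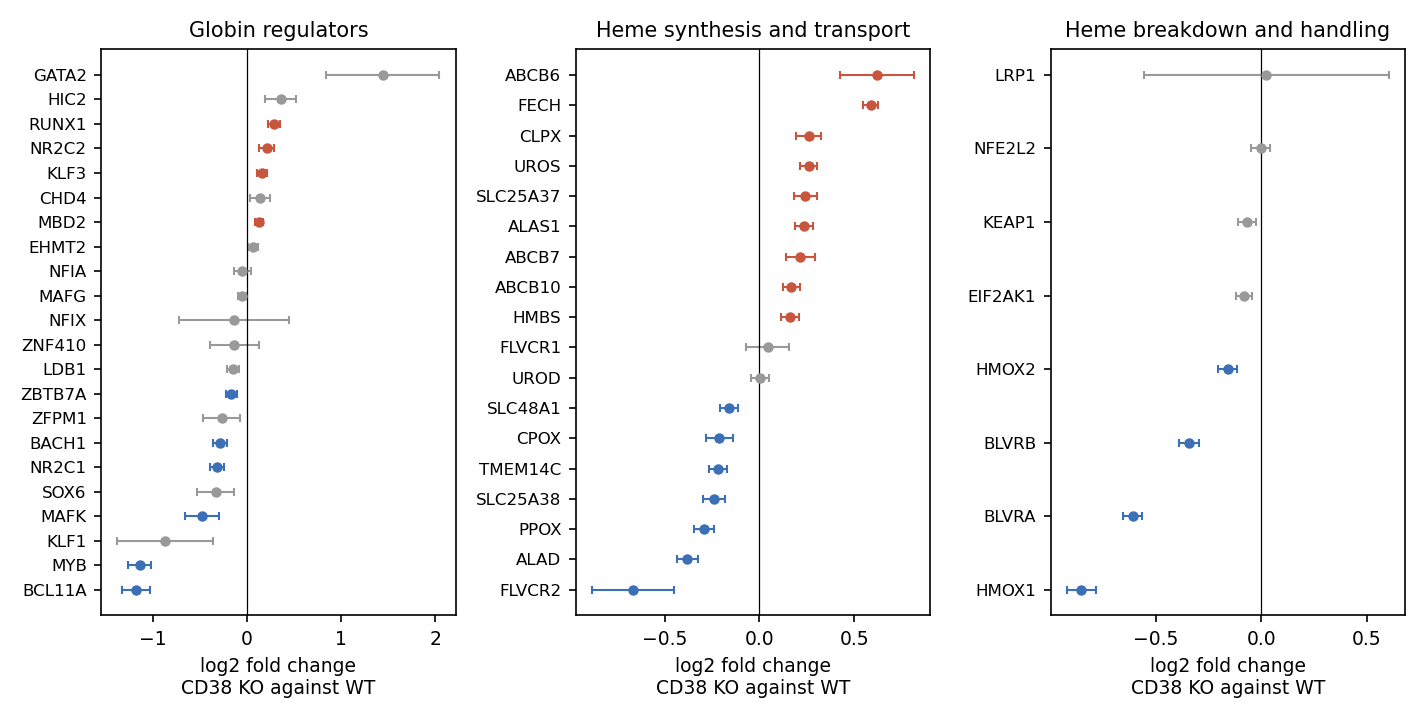
Log2 fold change of CD38 KO against WT (horizontal axes) for the tested genes of 3 lists: globin regulators (22), heme synthesis and transport (18) and heme breakdown and globin handling (8). Points are fitted values, bars ± 1 SE; red and blue are genes higher and lower at an edgeR adjusted p under 0.05 and grey the rest. BCL11A and MYB lie lowest among regulators at -1.18 and -1.14, FECH is at 0.59, and HMOX1 is at -0.85.

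Most red cell markers were low. Of 25 listed erythroid markers, 18 had a mean under 1 CPM in both groups. GYPB, a blood group protein of the red cell surface, had no count in any library. SLC4A1, the anion exchanger of the red cell membrane, had at most 5 counts in any library. The summed level of the list was 91.5 to 101.1 CPM in WT libraries and 81.8 to 88.1 CPM in CD38 KO libraries. A relation of this sum to the HBD level was not tested. Most of that sum came from 3 genes, TMCC2 (46.0 ± 3.55 CPM in WT and 40.9 ± 0.560 in CD38 KO), BPGM (18.7 ± 2.40 and 15.5 ± 1.16) and EPOR. TMCC2 and BPGM were past the threshold (edgeR adjusted p = 0.0275 and 0.0230). The call on TMCC2 was lost without CD38 KO replicate 1, CD38 KO replicate 3 or WT replicate 1 (edgeR adjusted p of 0.0594, 0.0821 and 0.192). The call on BPGM was lost without CD38 KO replicate 1, CD38 KO replicate 3 or WT replicate 3 (edgeR adjusted p of 0.0501, 0.122 and 0.205). Of the 11 tested, 1 was higher, 5 were lower and 5 were not past the threshold, which is 54.5% past it against 44.4% of all genes. Their median log2 fold change was -0.27, and -0.46 without WT replicate 2. The gene higher was CA2, a carbonic anhydrase (log2 fold change 0.49, edgeR adjusted p = 0.0303). The call on CA2 was lost without CD38 KO replicate 2, WT replicate 1 or WT replicate 3, with edgeR adjusted p = 0.179, 0.113 and 0.0821, and with scaling by library size alone (edgeR adjusted p = 0.0732).

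Among the lower erythroid markers, HEMGN, a nuclear protein of blood progenitors, fell from 6.23 ± 0.331 to 3.07 ± 0.335 CPM (log2 fold change -1.02, edgeR adjusted p = 3.39e-06). KEL, another blood group protein, had 66, 21 and 13 counts in WT and 1, 2 and 0 in CD38 KO (edgeR adjusted p = 9.19e-05), and the ratio of its summed counts was 0.0333 (counting interval 0.00676 to 0.100). EPOR, the erythropoietin receptor, was at 15.8 ± 1.13 CPM in WT and 16.2 ± 1.17 in CD38 KO, with overlapping groups (edgeR adjusted p = 0.780).

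Most markers of other blood cells were low, and most of those of plasma cells were not. All 10 megakaryocyte markers and all 10 myeloid markers had means under 1 CPM in both groups, and 0 of the 4 tested passed the threshold in edgeR, DESeq2 or limma-voom. At an unadjusted edgeR p under 0.05 there was 1, GP6, a platelet receptor (0.351 and 0.603 CPM). Of 10 T and NK cell markers, 5 were tested and 1 was past the threshold: CD3E, a chain of the T cell receptor complex, rose from 0.979 ± 0.0760 to 4.83 ± 0.359 CPM (log2 fold change 2.30, edgeR adjusted p = 9.68e-10). Its partners CD3D and CD3G had at most 4 counts in any library. Without CD38 KO replicate 3 the T and NK list had 2 genes higher and 1 lower. The summed level of the 14 plasma cell markers was 8586 to 8642 CPM in WT and 11230 to 11295 CPM in CD38 KO libraries, with 7 of 13 tested genes higher, 3 lower and 3 not past the threshold (76.9% past it, against 44.4% of all genes). CD27, also on this list, had 6, 2 and 3 counts in WT and 13, 6 and 9 in CD38 KO. It did not pass the filter on low counts. TENT5C, JCHAIN and XBP1 rose with log2 fold changes of 1.33, 1.05 and 0.75, and SLAMF7, MZB1 and FKBP11 fell, with -0.37, -0.22 and -0.42. A relation of the plasma cell markers to the HBD level was not tested.

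The pattern of HBD over the 6 libraries was shared by many genes. Of 13177 protein-coding genes compared, 552 had a Pearson's r above 0.99 with HBD in log2 CPM. The 5 most alike were ALOX5AP, CCNB1, GNG7, KIF2C and STK24, with r from 0.9996 to 0.9999 over the 6 libraries. These points share the libraries and mostly restate the difference between 2 groups, so the r is a description. ALOX5AP, a protein of leukotriene synthesis, was the closest, with 65.4, 69.0 and 66.6 CPM in WT and 265.4, 291.7 and 285.3 CPM in CD38 KO. CCNB1, the cyclin of mitotic entry, had means of 68.1 ± 1.86 and 255.5 ± 5.48 CPM, and GNG7, a G protein subunit, 72.5 ± 2.11 and 130.0 ± 2.77 CPM (SD, n = 3 each). Genes with far smaller differences than HBD thus reached the same r.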

How the data were processed

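The deposited table holds raw read counts per gene, as the authors made them, for the 6 libraries. An Ensembl identifier listed on several lines was kept once, which removed 200 of 60871 lines. STAR 2.7.9a, Partek and DESeq2 appear in the submitters' processing notes without roles. Genome build, annotation, counter, strand setting and read length: not given in the sources used here. Libraries started from 10 ng of RNA with an integrity number above 8 and used a SMARTer Ultra Low kit, per the labels' protocols. Reads carry no molecular identifiers, so intervals and floors cover counting error only.

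The groups were compared in R 4.3.3 with edgeR 4.0.16 (quasi-likelihood test, TMM factors, filterByExpr, robust dispersions, prior count of 0.125, no covariate). Benjamini-Hochberg adjustment ran over all 20120 genes tested, with a threshold of 0.05. CPM values use TMM factors. The procedure was tested on simulated counts. No pair of libraries of a group agreed within sampling noise; the smallest chi-square over its degrees of freedom was 5.92. Transcript lengths, positions and shared windows came from GENCODE 29, and the authors may have used another annotation.

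The members, the 11 gene lists, the alternatives and the rule for named genes were chosen with earlier results of these data known. The rule takes CD38, the members, up to 6 genes past the threshold per list by smallest adjusted p, key regulators, erythroid and heme genes, the nearest tested neighbours and the 5 genes most alike HBD; not all are described, and some genes the rule takes are not reported here. Other named genes (SDC1, CD27, CD3D, CD3G, GYPB, GP6, MZB1, HBBP1, HBZP1, BGLT3, HBZ, NR2C2, KLF3, LDB1, MAFG and GATA2) were chosen after their values were seen. The alternatives were other scalings (RLE, upper-quartile, library size alone), every line kept, HBA1 with HBA2 and HBG1 with HBG2 summed, no filter, a filter at 1 CPM in 3 libraries, a prior count of 2, DESeq2 1.42.0, limma-voom (limma 3.58.1), a replicate block and each library left out. Other HBD lengths were chosen after seeing the data.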

Additional observations from a re-analysis of the deposited data

How the results depend on the processing

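HBD and HBB were higher in CD38 KO under all 17 alternatives tried, and the counts of all genes past the threshold stayed within 1.5 times under all 15 that apply to them. Leaving out 1 library at a time gave log2 fold changes of 2.54 to 2.62 for HBD, 0.39 to 0.46 for HBB and -2.28 to -0.38 for HBA2. The labels do not say that the replicate numbers pair the libraries. Same-numbered libraries had correlations of their deviations of 0.0337, -0.00800 and -0.0207, and differently numbered ones -0.0236 to 0.0351. Such correlations cannot show whether libraries were prepared as pairs. With the replicate block the log2 fold changes were 2.58 for HBD and 0.41 for HBB, and the heme breakdown median was -0.21. The HBD level per length was 1.63 (WT) and 7.32 (CD38 KO) times that of HBB with the HBD transcript that has the RefSeq start, and 1.66 and 7.42 times with the union of exons.

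Scaling by library size alone, which moved the median of all genes by less than 0.1 on the log2 scale, gave 2.50 for HBD and 0.33 for HBB. It gave 1 regulator, 5 heme synthesis genes, 0 erythroid markers and 1 beta cluster neighbour higher. The medians were then -0.22 for regulators, 0.0204 for heme synthesis, -0.21 for heme breakdown, -0.30 for beta cluster neighbours, 0.0934 for plasma cell markers and, reversed, -0.00501 for alpha cluster neighbours. EPOR (-0.0480) and HNRNPA1P53 (-0.0629) reversed too. With no filter on low counts 2 regulators and 0 other globin-family genes were higher, and the medians were 0.15 for heme synthesis, -0.0419 for beta cluster neighbours and -0.0128, reversed, for alpha cluster neighbours. The filter at 1 CPM left 3 erythroid markers lower, with a median of -0.16. In limma-voom the heme breakdown median was -0.25. The causes were not tested.

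Leaving out 1 library at a time gave 2 to 5 regulators higher (median -0.13 to -0.0516), a heme synthesis median of 0.13 to 0.16 and a heme breakdown median of -0.25 to -0.11. Erythroid markers had 0 to 1 higher (median -0.46 to -0.19), T and NK cell markers 1 to 2 higher and 0 to 1 lower, and other globin-family genes 0 to 1 higher. Beta cluster neighbours had 1 to 2 higher (median -0.24 to -0.14) and alpha cluster neighbours 2 to 4 lower (median -0.00189 to 0.0871). The sign of EPOR (-0.0202 to 0.0928) and of HNRNPA1P53 (-0.380 to 0.776) depended on the library left out. Depth limits the alpha genes, with 60 and 24 counts in the groups.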
